A study of Mus musculus with 12 samples.

Results

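The genes described here encode enzymes of cholesterol and fatty acid synthesis, together with the proteins that sense sterols and switch these enzymes on. They were listed by gene symbol, and all 33 were found, each as 1 of the 24674 genes of the table. RNA had been sequenced from organoids, small 3-dimensional epithelial cultures in a gel, that were grown from basal cells of the prostate of wild-type C57BL/6 mice. There were 12 samples in 4 groups of 3 replicates: Vehicle, UK5099, Butyrate, and UK5099 + Butyrate (the combination). UK5099 is an inhibitor of the carrier that brings pyruvate into mitochondria, and butyrate is a short-chain fatty acid that inhibits enzymes removing acetyl groups from histones. The labels used here give no dose, duration or age, and do not say whether the replicates came from separate mice or cultures, so p-values measure only the spread between these samples. Between 33251850 and 43499007 fragments were recovered per sample, and the 33 genes had between 91 and 168036 fragments in any sample.

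In the known pathway, acetyl-CoA units are joined through the mevalonate pathway to squalene, squalene is closed to lanosterol, and a series of oxidations and reductions then turns lanosterol into cholesterol. Fatty acid synthesis uses the same acetyl-CoA: acetyl-CoA carboxylase makes malonyl-CoA, fatty acid synthase builds palmitate, elongases lengthen the chain and desaturases put in double bonds. Both branches are switched on by SREBP transcription factors, which SCAP carries out of the endoplasmic reticulum when sterols are low and which INSIG proteins hold back when sterols are high. UK5099 acts upstream of the citrate that carries mitochondrial acetyl units to the cytosol, and the prostate epithelium is a tissue known for its citrate.

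Values were deposited as TPM, a measure of RNA abundance in which every sample has the same total. Changes are coefficients of a limma fit on log2(TPM + 1), with p-values adjusted by the Benjamini-Hochberg method over all genes, and a gene was called at an adjusted p-value under 0.01 with an absolute coefficient over 1. Most genes drifted down on the deposited scale. Of genes averaging 1 TPM or more, the middle one had a coefficient of -0.12 under UK5099, -0.30 under butyrate and -0.41 when both were given, which became 0.01, 0.00 and 0.00 once the samples were rescaled by median of ratios. Each coefficient is therefore given on the deposited scale and then on the scaled one, and a gene is said to have risen or fallen against vehicle or another group only where its adjusted p-value was under 0.01 with the same sign on both.

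Sequence upstream of the start was read for 4 genes that stand for the branches of the pathway: Hmgcs1 for its sterol regulatory element, Sc5d as the sterol gene with the highest UK5099 coefficient, and Fads2 and Elovl7 as the fatty acid genes with the lowest butyrate coefficients. The 250 bases before each start are given 5′ to 3′ on the strand of the gene, from the RefSeq windows of GRCm38.p6, with matches to any of 4 short motifs in capitals. The motifs were the sterol regulatory element TCACNCCAC bound by SREBP, the CCAAT box bound by NF-Y, the GC box GGGCGG bound by SP1, and the E-box CACGTG, each searched on both strands.
Hmgcs1 (chr13:119690101-119690350, plus strand): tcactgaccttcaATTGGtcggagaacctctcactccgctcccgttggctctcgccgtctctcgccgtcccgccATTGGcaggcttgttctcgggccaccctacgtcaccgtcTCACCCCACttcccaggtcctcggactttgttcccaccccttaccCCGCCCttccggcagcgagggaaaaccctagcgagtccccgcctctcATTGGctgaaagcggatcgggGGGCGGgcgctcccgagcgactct
Sc5d (chr9:42264301-42264550, minus strand): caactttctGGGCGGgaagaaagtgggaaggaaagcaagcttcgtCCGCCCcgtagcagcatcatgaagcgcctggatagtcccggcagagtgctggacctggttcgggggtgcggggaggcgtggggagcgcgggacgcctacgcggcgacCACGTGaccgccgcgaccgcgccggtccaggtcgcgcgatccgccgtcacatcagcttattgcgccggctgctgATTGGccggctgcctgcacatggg
Fads2 (chr19:10101504-10101753, minus strand): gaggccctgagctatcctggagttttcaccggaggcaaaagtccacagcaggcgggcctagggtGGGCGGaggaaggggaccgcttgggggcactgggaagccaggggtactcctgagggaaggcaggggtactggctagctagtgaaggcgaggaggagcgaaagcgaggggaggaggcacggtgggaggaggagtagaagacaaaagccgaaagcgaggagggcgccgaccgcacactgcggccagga
Elovl7 (chr13:108214154-108214403, plus strand): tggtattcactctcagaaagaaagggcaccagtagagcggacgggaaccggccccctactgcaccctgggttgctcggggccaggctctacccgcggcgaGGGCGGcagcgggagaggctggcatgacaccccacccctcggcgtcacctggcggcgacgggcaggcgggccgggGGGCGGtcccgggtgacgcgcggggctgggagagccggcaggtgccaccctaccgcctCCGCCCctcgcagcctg
In Hmgcs1 the element TCACCCCAC began 137 bases before the start, between CCAAT boxes on the opposite strand at 176 and 45 bases. Sc5d held a CCAAT box, an E-box and 2 GC boxes, whereas the windows of Fads2 and Elovl7 held GC boxes and no CCAAT box.

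A window was found for 27 of the 33 genes, which leaves out Scd1, Scd2, Fads1, Fdft1, Fdps and Sqle. The CCAAT box was present in 22 of these 27, against 37.5% of all 27025 genes with a window. It was in the windows of 14 of 14 genes of the sterol steps and of 4 of 8 genes of fatty acid synthesis, desaturation and elongation. A gene with several windows was counted where any of them held the motif. For Pmvk and Dhcr7, of the sterol steps, other windows held no CCAAT box. The shares of all genes were taken whatever their level in these samples. The GC box was in 21 of 27, against 35.4% of all genes, and the E-box in 6 of 27, against 6.86%. The exact element TCACNCCAC was found in 1 of 27, against 1.22% of all genes. These matches describe the letters of the windows and no binding was measured.

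In vehicle the genes spanned a wide range of levels. Compared per base of exon, as fragments divided by exonic length and scaled to the same total, Scd2, a stearoyl-CoA desaturase, stood first at 2130 ± 41.2 TPM (SD, n = 3). Hmgcs1, which makes HMG-CoA, followed at 441 ± 2.06, Cyp51, the lanosterol demethylase, at 347 ± 2.41, and Scd1 at 314 ± 4.59. At the low end were Acaca, the acetyl-CoA carboxylase of the cytosol, at 16.4 ± 0.582, Tm7sf2, a sterol reductase, at 15.5 ± 0.710, and Acacb, the carboxylase linked to mitochondria, at 1.66 ± 0.134. Exonic length joined all annotated exons of a gene, for Tm7sf2 4403 bp of a span of 5553 bp. A longer exonic length gives a lower value, so the order depends on this choice. Of the 32 neighbouring pairs in this order, the vehicle values of 7 overlapped, among them Fads1 with Nsdhl, Mvd with Sc5d, and Acaca with Tm7sf2. The 33 genes together held 1.01% ± 0.00968 of all fragments in vehicle, 0.97% ± 0.0122 under UK5099, 0.883% ± 0.00458 under butyrate and 0.873% ± 0.00739 in the combination, and Scd2 alone held 0.400% in vehicle and 0.320% in the combination.

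**Figure D1:**
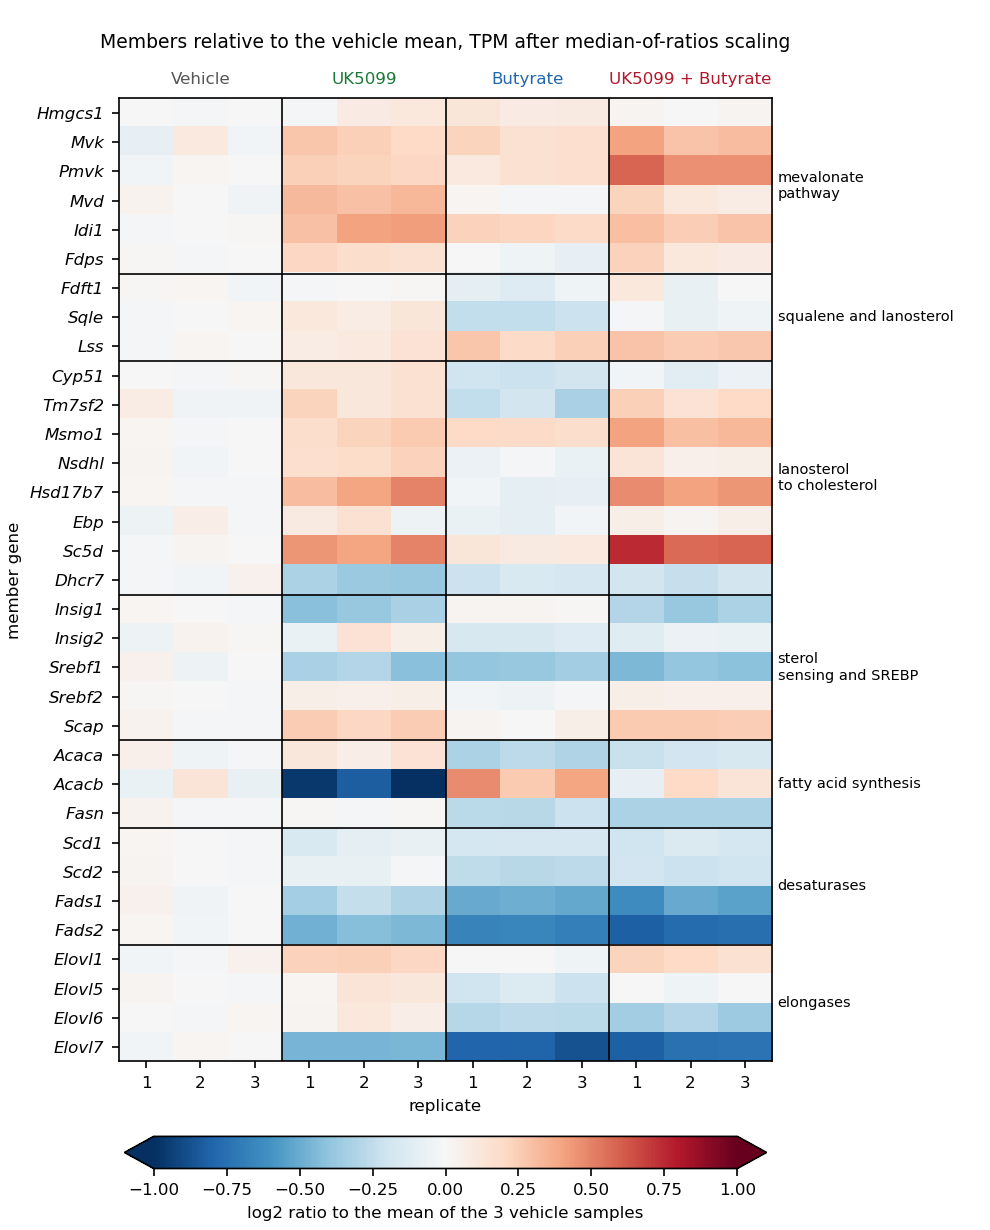
Heat map of the 33 genes (rows, grouped by step) in the 12 samples (columns), as the log2 ratio of the scaled TPM to the mean of the 3 vehicle samples. Fads1, Fads2 and Elovl7 are blue in all 9 treated samples, Sc5d is red in all 9, and Insig1 is blue in the 6 samples given UK5099 and near white with butyrate alone.

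The first comparison asked how blocking the pyruvate carrier changed these genes. With UK5099 the genes Sc5d, Hsd17b7, Idi1 and Mvd of the sterol steps and the elongase Elovl1 rose. The desaturases Fads1, Fads2 and Scd1, the elongase Elovl7, the carboxylase Acacb, the regulators Insig1 and Srebf1 and the sterol reductase Dhcr7 fell. All of these coefficients were within 1 on the log2 scale. Of the 5 that rose, Sc5d alone passed the deposited limit in a fit of the 6 samples compared (1 in place of 5). The count was 3 without Vehicle replicate 2, Vehicle replicate 3, UK5099 replicate 1 or UK5099 replicate 3. Mvd was lost in each of these 4 fits, Elovl1 in all but the one without Vehicle replicate 3, and Hsd17b7 in that one. None of the 33 genes was called at both limits by limma, against 1.84% of all genes, and voom on recovered fragments also called 0. By limma 22 had an unadjusted p-value under 0.05 as deposited and 28 on scaled values. Counts at this unadjusted limit, here and below, have no share of all genes beside them. They are therefore not read as particular to the 33 genes. At an adjusted p-value under 0.01 alone, 5 genes were higher, against 8.24% of all genes, and 11 lower, against 24.7%. On scaled values 15 were higher, against 13.6% of all genes, and 8 lower, against 13.6%. Genes past the limit on both scales numbered 5 higher, against 8.16%, and 8 lower, against 13.6%. A mean of at least 1 TPM was reached by 32 of the 33 genes. Among all genes that reached it, 12.3% were higher and 38.1% lower as deposited, and 21.8% and 19.9% on scaled values. The median coefficient of the 33 genes was -0.06 as deposited and 0.07 scaled, against -0.12 and 0.01 for genes with at least 1 TPM.

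Sc5d (chr9:42162891-42175552, minus strand, as the table gives it), the sterol desaturase that acts late in the pathway, had the highest coefficient. It read 51.8, 53.4 and 51.4 TPM in the vehicle samples and 63.1, 61.8 and 66.9 TPM with UK5099. All 3 treated values lay above all 3 vehicle values. Its coefficient was 0.29 ± 0.04 (SE, limma adjusted p = 0.00059) as deposited and 0.44 (adjusted p = 4.13e-05) scaled, and its mean was 136% of vehicle after scaling.

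Hsd17b7, the 3-ketosteroid reductase of the pathway, read 16.9, 16.4 and 16.2 TPM in vehicle and 18.2, 19.5 and 21.2 TPM with UK5099. The groups did not overlap, and the spread with UK5099 was the wider one. Its coefficient was 0.24 ± 0.05 as deposited and 0.38 scaled.

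Idi1, the isomerase that makes the second isoprene unit, read 226, 226 and 226 TPM in vehicle and 247, 268 and 275 TPM with UK5099, with coefficients of 0.22 and 0.37. Mvd, the decarboxylase before it, read 27.1, 26.3 and 25.5 TPM in vehicle and 29.3, 28.9 and 30.2 TPM with UK5099, with coefficients of 0.16 and 0.30. The other 3 mevalonate genes with higher scaled values, Mvk, Pmvk and Fdps, had deposited coefficients of 0.08, 0.07 and 0.03 that did not pass the limit and scaled ones of 0.21, 0.21 and 0.18 that did.

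Dhcr7, which reduces 7-dehydrocholesterol to cholesterol, was the one gene of the sterol steps that fell. It read 11.1, 11 and 11.4 TPM in vehicle and 7.99, 7.74 and 7.80 TPM with UK5099, so the groups were far apart relative to their spread. Its coefficient was -0.46 ± 0.02 (limma adjusted p = 2.46e-07) and -0.31 scaled. Dhcr7 and Sc5d encode neighbouring steps, since SC5D makes the 7-dehydrocholesterol that DHCR7 reduces. Of the 17 genes of the sterol steps, 4 were higher and 1 lower as deposited, and 12 were higher and 1 lower after scaling, with a median of 0.03 and 0.18. The limit was passed on neither scale by Hmgcs1 (-0.09 and 0.06), Fdft1 (-0.15 and 0.00), Tm7sf2 (0.01 and 0.16) and Ebp (-0.08 and 0.06), while Sqle (-0.05 and 0.10), Lss (-0.05 and 0.10), Cyp51 (-0.03 and 0.12), Msmo1 (0.07 and 0.22) and Nsdhl (0.04 and 0.18) passed it on the scaled one only.

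Among the regulators, Insig1 (chr5:28276361-28283660, plus strand), which retains SCAP in the endoplasmic reticulum and is itself an SREBP target, fell from 155, 151 and 149 TPM in vehicle to 101, 105 and 110.1 TPM with UK5099. Its coefficient was -0.52 ± 0.03 (limma adjusted p = 1.44e-06) as deposited and -0.37 scaled. Srebf1, which encodes SREBP1, the factor tied to fatty acid genes, fell from 29.9, 28.0 and 28.6 TPM to 20.5, 21.1 and 19.6 TPM, with coefficients of -0.48 ± 0.03 and -0.33. Srebf2, which encodes the factor tied to sterol genes, changed sign with the scaling, at -0.10 as deposited and 0.05 scaled, both past the limit. Scap stood at 0.08 and 0.21, past the limit on the scaled side only, and Insig2 at -0.09 and 0.04, past it on neither.

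Fatty acid genes fell mainly at the desaturases. Fads2 (chr19:10040129-10079110, minus strand), the delta-6 desaturase that starts the synthesis of long polyunsaturated chains, had the lowest coefficient of the 33, -0.58 ± 0.03 (limma adjusted p = 1.69e-07) as deposited and -0.43 scaled. It read 34.7, 33.4 and 33.8 TPM in vehicle and 21.7, 22.7 and 22.6 TPM with UK5099. Fads1 (chr19:10160252-10174241, plus strand), the delta-5 desaturase encoded next to it, read 72.2, 68.2 and 68.9 TPM in vehicle and 49.0, 53.0 and 51.4 TPM with UK5099, with coefficients of -0.44 and -0.29. Both genes were lower in every UK5099 sample than in every vehicle sample.

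Elovl7 (chr13:108350938-108422217, plus strand), an elongase of saturated very long chains, fell from 5.48, 5.64 and 5.51 TPM to 3.57, 3.61 and 3.67 TPM, with coefficients of -0.50 ± 0.02 and -0.37. Elovl1, another elongase of very long chains, went the other way, with 71.8, 72.2 and 74.1 TPM in vehicle, 76.2, 76.8 and 76.3 TPM with UK5099, and coefficients of 0.07 and 0.22. Acacb, described after its values were seen, was the least abundant gene and had the largest proportional fall, from 0.262, 0.298 and 0.256 TPM to 0.124, 0.138 and 0.106 TPM, or 50.1% of vehicle after scaling. Its coefficient was only -0.18 because the pseudocount is large beside such values, and voom on its 91 to 286 fragments gave -1.0 (adjusted p = 1.17e-06).

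Scd1 fell with coefficients of -0.26 and -0.11, while Scd2 (-0.20 and -0.05) and Fasn (-0.15 and 0.00) passed the limit as deposited only. Acaca (-0.03 and 0.07), Elovl5 (-0.06 and 0.08) and Elovl6 (-0.07 and 0.06) passed it on neither scale.

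**Figure D2:**
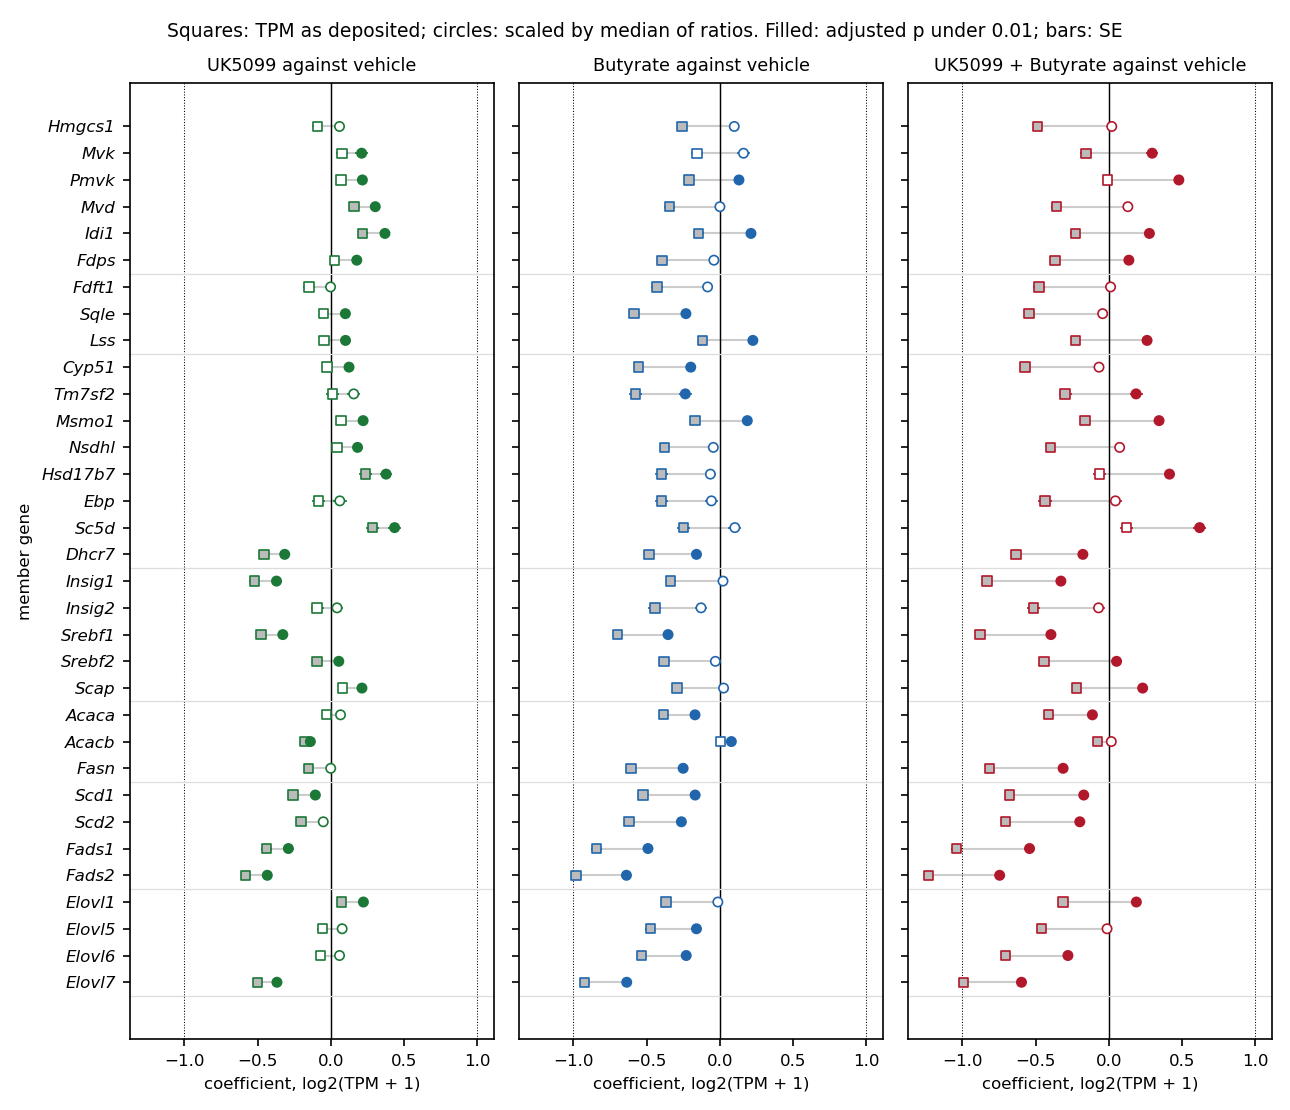
Coefficients on log2(TPM + 1) with their SE (horizontal axis) for the 33 genes (vertical axis) in each treatment against vehicle. Squares are on the deposited scale, circles on the scaled one, and filled symbols have an adjusted p-value under 0.01. Dotted lines mark the call limit of 1, which only Fads1 and Fads2 passed, with the combination and on the deposited scale.

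The second comparison asked what butyrate did alone. Of the 14 genes that fell, 9 were of fatty acid synthesis, desaturation and elongation: Fads1, Fads2, Elovl7, Elovl6, Elovl5, Scd1, Scd2, Fasn and Acaca. Srebf1 fell with them, as did Sqle, Cyp51, Tm7sf2 and Dhcr7 of the sterol branch, whereas the other sterol genes were lower only as deposited or changed sign with the scaling, and no gene rose on both scales. None of the 33 genes was called at both limits by limma, against 3.54% of all genes, and voom called 0. By limma 32 had an unadjusted p-value under 0.05 as deposited and 24 on scaled values. At an adjusted p-value under 0.01, 31 were lower as deposited, against 35.9% of all genes, and 0 higher, against 9.70%. On scaled values 14 were lower, against 18.2%, and 5 higher, against 20.2%. On both scales 14 were lower, against 18.2%, and 0 higher, against 9.69%. Among genes with at least 1 TPM, 57.6% were lower and 11.7% higher as deposited, and 28.6% and 27.6% on scaled values. The median coefficient of the 33 genes was -0.40 as deposited and -0.06 scaled, beside -0.30 and 0.00 for genes with at least 1 TPM.

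Fads2 again had the lowest coefficient, -0.98 ± 0.03 (limma adjusted p = 2.4e-09) and -0.64 scaled, and read 16.7, 16.8 and 16.6 TPM with butyrate, 63.0% of vehicle after scaling. Elovl7 read 2.5, 2.47 and 2.38 TPM, with coefficients of -0.92 ± 0.02 and -0.64 and a level 56.7% of vehicle after scaling. Fads1 read 38.3, 38.7 and 38.3 TPM, with coefficients of -0.84 ± 0.04 and -0.49. For these 3 genes every butyrate sample lay under every vehicle and every UK5099 sample.

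Fasn, which encodes fatty acid synthase, read 138, 133 and 132 TPM in vehicle and 87.0, 86.2 and 90.5 TPM with butyrate, with coefficients of -0.61 and -0.25. Scd2, the most abundant of the genes, fell with coefficients of -0.62 and -0.26 and Scd1 with -0.53 and -0.17. Elovl6, which lengthens palmitate, fell with -0.54 and -0.23, Elovl5 with -0.48 and -0.16, and Acaca with -0.39 and -0.17. Elovl1 (-0.37 and -0.01) passed the limit as deposited only. Acacb was the exception of the branch, at 0.294, 0.253 and 0.281 TPM with butyrate, a deposited coefficient of 0.00 that did not pass and a scaled one of 0.08 that did.

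In the sterol branch Sqle, the squalene epoxidase, went from 84.8, 85.1 and 85.3 TPM in vehicle to 55.9, 55.7 and 57.5 TPM with butyrate, with coefficients of -0.59 ± 0.02 and -0.23. Cyp51 fell with coefficients of -0.55 and -0.20, Tm7sf2 with -0.58 and -0.24, and Dhcr7 with -0.49 and -0.16.

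Among genes averaging 1 TPM or more, which leaves out Acacb, the highest deposited coefficients were those of Lss, Idi1 and Mvk. Lss, which closes the sterol ring, read 25.4, 26.0 and 25.4 TPM in vehicle and 24.2, 22.6 and 23.6 TPM with butyrate, a deposited coefficient of -0.12 and a scaled one of 0.23. Idi1 read 207, 204 and 202 TPM with butyrate, with coefficients of -0.15 and 0.21. Mvk, the mevalonate kinase, read 7.91, 8.94 and 8.11 TPM in vehicle and 7.57, 7.18 and 7.32 TPM with butyrate, and its coefficients of -0.16 and 0.16 passed the limit on neither scale. Lss and Idi1 passed it on both scales with opposite signs, so no direction is given for them, and the same held for Pmvk (-0.21 and 0.13) and Msmo1 (-0.17 and 0.19).

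The remaining sterol genes passed the limit as deposited only: Hmgcs1 (-0.26 and 0.10), Mvd (-0.34 and 0.00), Fdps (-0.40 and -0.04), Fdft1 (-0.43 and -0.08), Nsdhl (-0.38 and -0.05), Hsd17b7 (-0.40 and -0.06), Ebp (-0.40 and -0.06) and Sc5d (-0.25 and 0.10).

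Of the regulators, Srebf1 fell to 17.2, 17.2 and 17.7 TPM with butyrate, with coefficients of -0.70 ± 0.03 (limma adjusted p = 6.59e-08) and -0.35. Insig1 read 121, 119.7 and 119.5 TPM, and its scaled coefficient was 0.02 against -0.33 as deposited, so its scaled level with butyrate, 101.5% of vehicle, stood above that with UK5099, 77.2% of vehicle. Srebf2 (-0.38 and -0.03), Scap (-0.29 and 0.03) and Insig2 (-0.44 and -0.13) passed the limit as deposited only.

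**Figure D3:**
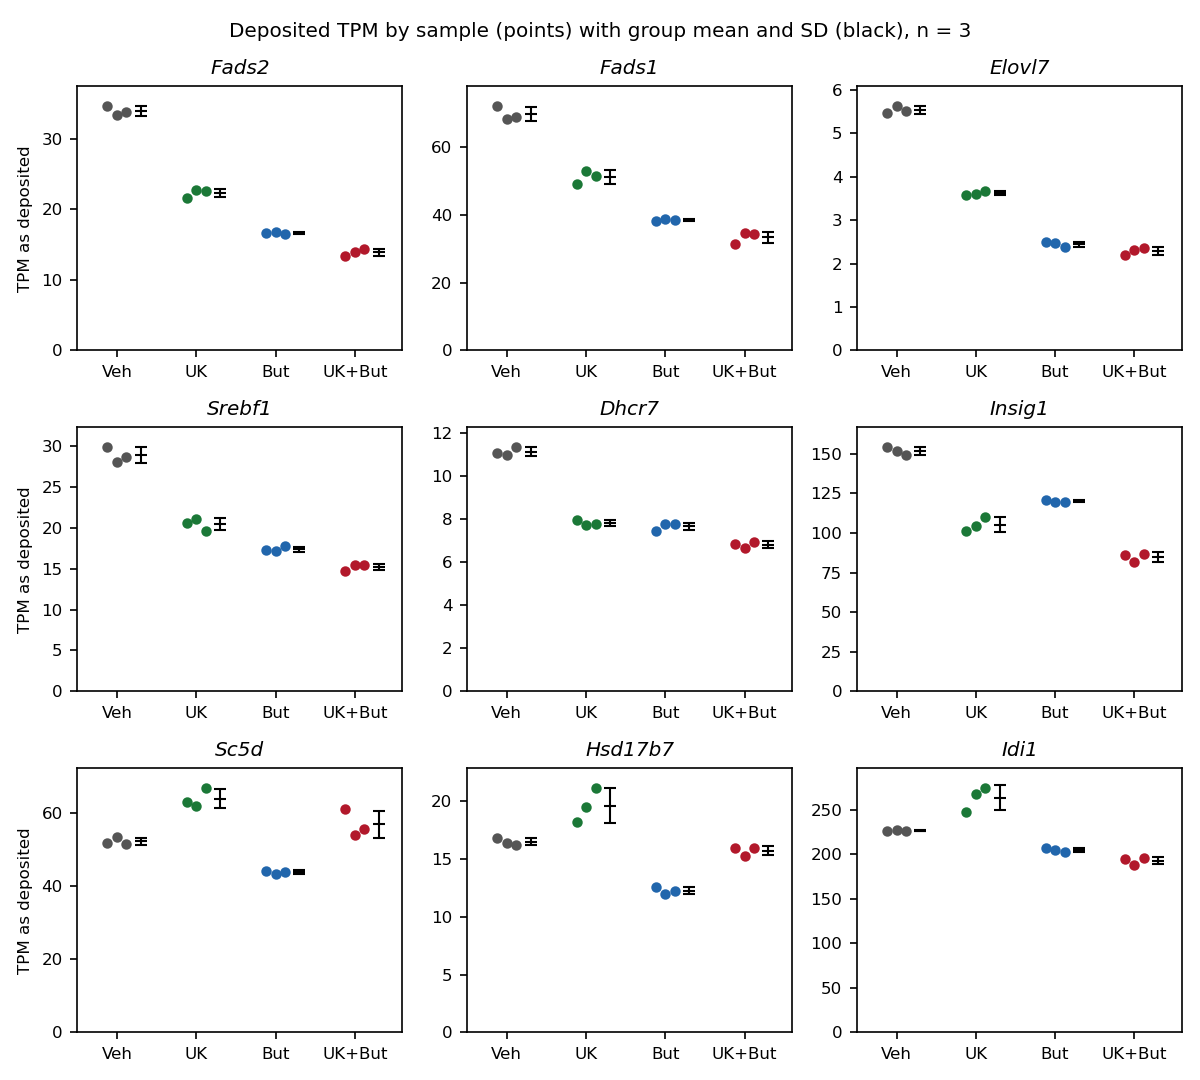
Deposited TPM of 9 genes by sample (points) in the 4 groups, with the group mean and SD in black (n = 3) and vertical axes from 0. Fads2, Fads1, Elovl7 and Srebf1 step down from vehicle to UK5099 to butyrate, Insig1 is lower with UK5099 than with butyrate, and Sc5d and Hsd17b7 are highest with UK5099 alone.

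The third comparison set the combination against vehicle. Of the comparisons fitted by limma, genes were called at both limits in this one, 2 of the 33 against 6.42% of all genes, and both were desaturases: Fads2, at 13.4, 13.9 and 14.4 TPM with a coefficient of -1.23 ± 0.03 (limma adjusted p = 3.27e-10), and Fads1, at 31.5, 34.5 and 34.2 TPM with a coefficient of -1.04 ± 0.04 (adjusted p = 9.31e-09). After scaling their coefficients were -0.75 and -0.54, and neither was called, nor was either by voom at -0.77 and -0.54. Their levels were 58.2% and 68.2% of vehicle after scaling. Elovl7 lay just inside the limit, at 2.19, 2.31 and 2.36 TPM with coefficients of -0.99 and -0.60.

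At an adjusted p-value under 0.01, 30 genes were lower as deposited, against 40.8% of all genes, and 0 higher, against 10.1%. On scaled values 11 were lower, against 20.6%, and 12 higher, against 23.4%. On both scales 11 were lower, against 20.6%, and 0 higher, against 10.1%. The 11 were Fads1, Fads2, Elovl7, Elovl6, Scd1, Scd2, Fasn, Acaca, Srebf1, Insig1 and Dhcr7. Of genes with at least 1 TPM, 64.2% were lower and 11.2% higher as deposited, and 31.5% and 30.8% on scaled values.

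Fasn stood at 75.3, 75.4 and 76.8 TPM with the combination, with coefficients of -0.82 and -0.31. Srebf1 stood at 14.7, 15.4 and 15.4 TPM (-0.88 and -0.40) and Insig1 at 86.3, 81.4 and 86.6 TPM (-0.83 and -0.33). Elovl6 had coefficients of -0.71 and -0.28, Scd2 of -0.71 and -0.20, Scd1 of -0.68 and -0.17, Dhcr7 of -0.63 and -0.18, and Acaca of -0.41 and -0.11. All of these were lower in every combination sample than in every vehicle sample on both scales.

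Of the 12 genes with higher scaled values, 9 were of the sterol steps. Sc5d stood at 61.1, 54.0 and 55.6 TPM, a scaled coefficient of 0.62 ± 0.04, or 155% of vehicle, while the deposited coefficient of 0.12 did not pass the limit. Pmvk, the phosphomevalonate kinase, had a scaled coefficient of 0.48 and a deposited one of -0.01, and Hsd17b7 a scaled one of 0.41 and a deposited one of -0.07. The scaled coefficients of Msmo1 (0.34), Mvk (0.30), Idi1 (0.28), Lss (0.26), Tm7sf2 (0.19), Fdps (0.14), Scap (0.23), Elovl1 (0.19) and Srebf2 (0.05) also passed the limit, but each of these 9 passed it with a negative sign as deposited. Hmgcs1 (-0.49 and 0.02), Mvd (-0.36 and 0.13), Fdft1 (-0.48 and 0.01), Sqle (-0.55 and -0.04), Cyp51 (-0.57 and -0.07), Nsdhl (-0.40 and 0.07), Ebp (-0.44 and 0.04), Insig2 (-0.52 and -0.07), Elovl5 (-0.46 and -0.01) and Acacb (-0.08 and 0.02) passed it as deposited only.

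The interaction term asked whether the change with UK5099 differed when butyrate was present. It passed the limit of 0.01 for 5 genes, 4 with a positive sign, against 7.01% of all genes, and 1 with a negative sign, against 6.38%. None was called at both limits by limma, against 1.01% of all genes, 15 had an unadjusted p-value under 0.05, and voom called 0. Median of ratios scaling gave 5 positive and 1 negative, whereas voom gave 9 and 2, and nuclear protein-coding genes rescaled gave 5 negative ones. The 4 positive ones were Elovl7 (0.43 ± 0.03, limma adjusted p = 1.45e-05), Fads2 (0.34 ± 0.04), Dhcr7 (0.31 ± 0.03) and Srebf1 (0.29 ± 0.05), all genes that fell with either treatment alone, and their fall with the combination was smaller than the sum of the separate falls. Elovl7 had coefficients of -0.50 with UK5099 and -0.92 with butyrate, which add up to a larger fall than the -0.99 measured with both. Fads1 followed in the same direction at 0.24 with an adjusted p-value of 0.012 as deposited and of 0.00848 scaled.

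The negative one was Idi1 (-0.30 ± 0.05, adjusted p = 0.00192), which rose with UK5099 alone and read 195, 188 and 196 TPM with the combination, under vehicle as deposited (-0.23) and above it after scaling (0.28). The next lowest terms, those of Mvd (-0.17, adjusted p = 0.0352) and Hmgcs1 (-0.14, adjusted p = 0.0729), did not pass. Mvd read 20.8, 20.3 and 20.4 TPM with butyrate and 21.5, 19.7 and 19.7 TPM with the combination. Hmgcs1 read 203, 200.1 and 200.1 TPM in vehicle, 178, 191 and 197 under UK5099, 171, 165 and 168 under butyrate, and 143, 141 and 145 in the combination.

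**Figure D4:**
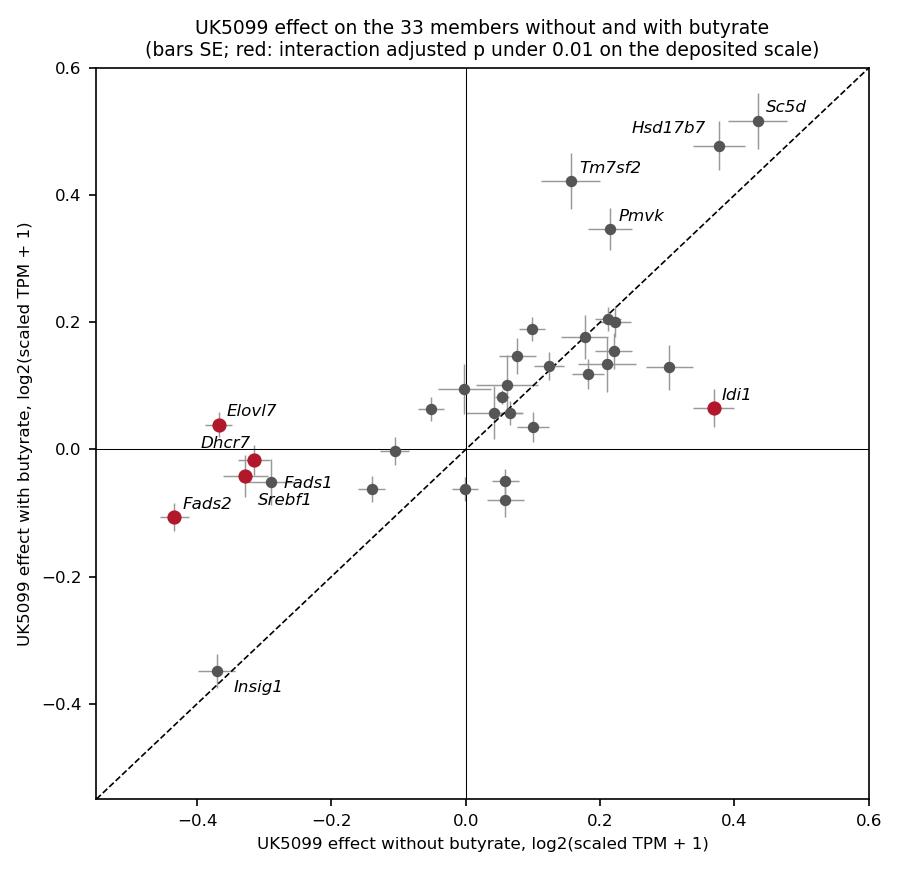
Coefficient of UK5099 on log2(scaled TPM + 1) without butyrate (horizontal axis, 3 UK5099 against 3 vehicle samples) and with butyrate (vertical axis, 3 combination against 3 butyrate samples) for the 33 genes, with SE. The dashed line marks equal effects, and red points have an interaction with an adjusted p-value under 0.01 on the deposited scale; Fads1, in grey, passed on the scaled one only. Insig1, Sc5d and Hsd17b7 lie near the line, and Elovl7, Dhcr7, Srebf1 and Fads2 lie between -0.11 and 0.04 on the vertical axis.

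The effect of UK5099 was also read with butyrate present throughout. Against butyrate alone, the combination was higher on both scales for Sc5d (0.37 and 0.52), Hsd17b7 (0.33 and 0.48), Tm7sf2 (0.28 and 0.42) and Pmvk (0.20 and 0.35), all of the sterol branch. It was lower on both scales for Insig1 (-0.50 and -0.35) and Fads2 (-0.25 and -0.11), the only one of the 11 fatty acid genes to pass on both. Tm7sf2 read 23.0, 21.3 and 21.0 TPM in vehicle, 22.7, 21.2 and 22.0 TPM with UK5099, 14.3, 14.9 and 13.6 TPM with butyrate and 17.9, 16.9 and 17.7 TPM with the combination. As deposited 4 genes were higher, against 5.52% of all genes, and 10 lower, against 22.0%, and on scaled values 13 were higher, against 10.4%, and 2 lower, against 9.28%. For genes with at least 1 TPM the shares were 7.42% and 35.9% as deposited and 15.3% and 14.1% on scaled values. This comparison was added after the data were seen.

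Set directly against each other, butyrate was lower than UK5099 for most of the genes. As deposited 29 were lower, against 27.5% of all genes, and 2 higher, against 9.97%, and on scaled values 21 were lower, against 15.6%, and 4 higher, against 18.1%. The shares for genes with at least 1 TPM were 45.6% and 11.8% as deposited and 25.4% and 24.1% on scaled values. The median coefficient of the 33 genes was -0.37 as deposited and -0.20 scaled, against -0.17 and 0.00 for genes with at least 1 TPM. By limma 32 of the 33 had an unadjusted p-value under 0.05 as deposited and 28 on scaled values. None of the 33 was called at both limits by limma, against 1.86% of all genes. Voom called 1, Acacb, at 1.39, which was also higher by limma at 0.18 and 0.22.

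Insig1 was the other gene higher with butyrate than with UK5099, by 0.19 as deposited and 0.39 scaled (limma adjusted p = 2.42e-06). Among the genes lower with butyrate on both scales, Hsd17b7 had -0.64 and -0.44, Tm7sf2 -0.59 and -0.39, Sqle -0.53 and -0.33, Sc5d -0.54 and -0.33, Cyp51 -0.53 and -0.32, Mvd -0.50 and -0.30, and Elovl6 -0.46 and -0.29. Fads1 (-0.40 and -0.20) and Fads2 (-0.40 and -0.20) were lower as well. Srebf1 was lower as deposited at -0.22 and stood at -0.03 scaled, and Dhcr7 stood at -0.03 and 0.16, passing the limit on the scaled side only.

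Genes around the pathway were taken from 7 lists of lipid metabolism with 85 entries, of which 83 were in the table. With UK5099, 14 of the 83 were higher and 28 lower as deposited, against 8.24% and 24.7% of all genes, and 24 and 15 on scaled values, against 13.6% and 13.6%. Butyrate gave 12 higher and 43 lower as deposited, against 9.70% and 35.9%, and 24 and 26 on scaled values, against 20.2% and 18.2%. The combination gave 17 and 47 as deposited, against 10.1% and 40.8%, and 33 and 28 on scaled values, against 23.4% and 20.6%. Shares among genes with at least 1 TPM were larger. As deposited they were 12.3% and 38.1% with UK5099, 11.7% and 57.6% with butyrate, and 11.2% and 64.2% with the combination. On scaled values they were 21.8% and 19.9%, 27.6% and 28.6%, and 30.8% and 31.5% in the same order. The counts by list are read against these scaled shares and those of all genes. By list, with scaled counts in order of UK5099, butyrate and the combination, the 8 genes of acetyl-CoA, citrate and NADPH supply had 6, 4 and 4 higher and 1, 2 and 1 lower. The 12 chain elongation partners and other desaturases had 4, 3 and 4 higher and 2, 2 and 2 lower, and the 10 genes of SREBP processing had 2, 3 and 2 higher and 1, 5 and 6 lower. The 8 genes of other sterol and isoprenoid synthesis had 0, 2 and 2 higher and 2, 4 and 5 lower, the 13 of cholesterol uptake, transport and storage had 4, 5 and 7 higher and 0, 3 and 1 lower, the 16 of glycerolipid synthesis and droplets had 2, 3 and 5 higher and 5, 5 and 7 lower, and the 16 of ceramide and skin lipid synthesis had 6, 4 and 9 higher and 4, 5 and 6 lower.

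At both limits the called genes with the largest coefficients were these. Elovl4, which makes the ultra-long chains of skin ceramides, rose from 0.317, 0.446 and 0.391 TPM in vehicle to 5.01, 4.74 and 6.02 TPM under UK5099 (2.17 ± 0.09, limma adjusted p = 1.01e-07), 1.80, 1.76 and 1.82 TPM under butyrate (1.01), and 11.2, 8.90 and 9.35 TPM when both were given (2.96). Its direction was opposite to that of Elovl7. Degs2, a ceramide desaturase and hydroxylase, rose from 0.0701 ± 0.00575 TPM in vehicle to 1.49 ± 0.171 TPM with butyrate (1.22) and 5.74 ± 0.365 TPM with the combination (2.65). With UK5099 alone Degs2 stood at 0.983 ± 0.081 TPM, above vehicle but not called at both limits. Its lowest sample held 10 fragments.

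Plin2, which coats lipid droplets, fell from 11.8 ± 0.348 to 3.98 ± 0.0846 TPM with butyrate (-1.36) and stood at 11.7 ± 0.254 TPM with UK5099, a difference between the treatments of -1.35. Ch25h, cholesterol 25-hydroxylase, whose product restrains SREBP processing, fell from 28.9 ± 2.86 to 10.5 ± 0.770 TPM with butyrate (-1.38) and 9.70 ± 1.33 TPM with the combination (-1.49). Cers2, a ceramide synthase, fell from 91.0 ± 1.05 to 42.5 ± 0.832 TPM with butyrate (-1.08), and Pnpla2, a triglyceride lipase, from 46.0 ± 1.35 to 14.6 ± 0.917 TPM with the combination (-1.59). All 6 kept their sign after scaling, though Cers2 with butyrate was then at -0.73, inside the limit of 1.

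Cell type markers moved with the same groups, and fewer cells of a type and less RNA per cell cannot be told apart in bulk RNA. As summed TPM, the 5 basal markers stood at 6531 to 6657 in vehicle, 13496 to 13878 under UK5099, 6920 to 7158 under butyrate and 9983 to 10391 in the combination. The 5 luminal markers in the table stood at 4141 to 4311, 2334 to 2492, 2246 to 2286 and 1390 to 1578 in the same order. The 7 squamous markers stood at 438 to 488, 972 to 1098, 1015 to 1023 and 1150 to 1515, and the 8 proliferation genes at 484 to 491, 332 to 358, 341 to 348 and 253 to 279. Of the basal keratins, Krt5 stood at 1848 ± 8.64 and Krt14 at 1676 ± 22.2 TPM in vehicle, beside the luminal keratins Krt8 at 916 ± 19.7 and Krt18 at 1468 ± 25.2 TPM. With each treatment all 8 proliferation genes were lower as deposited, and 7, 5 and 8 of them on scaled values with UK5099, butyrate and the combination. The shares of all genes that were lower were 24.7%, 35.9% and 40.8% as deposited and 13.6%, 18.2% and 20.6% scaled. Of the 5 basal markers, 5, 2 and 4 were higher and 0, 3 and 1 lower as deposited. Scaled, 5, 3 and 4 were higher and 0, 0 and 1 lower. Shares of all genes that were higher were 8.24%, 9.70% and 10.1% as deposited and 13.6%, 20.2% and 23.4% scaled. With butyrate Krt14 (-0.27 and 0.09), Krt15 (-0.32 and 0.04) and Itga6 (-0.19 and 0.16) were lower, as deposited only.

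Markers of other cell types differed in level. The 3 immune markers in the table summed to at most 0.693 TPM and the 4 endothelial ones to at most 0.0426 TPM in any sample. The 6 fibroblast markers stood at 2.29 to 2.42 in vehicle, 2.59 to 2.89 with UK5099, 10.6 to 11 with butyrate, mostly Dcn, and 2.27 to 2.66 with the combination. The adipocyte list had only Fabp4 in the table, at 0.370 to 0.382, 1.38 to 2.18, 2.09 to 2.44 and 16.6 to 22.3. The 3 sebocyte markers stayed at or under 0.866 and the 3 neuroendocrine ones at or under 1.04. What part these shifts in basal, luminal, squamous and proliferation markers had in the lipid gene values was not tested.

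Acacb had 91 to 286 fragments per sample and each of the other 32 genes at least 661. Recovered fragments were whole within 0.02 in all 12 samples for Mvk, Hsd17b7, Ebp, Dhcr7 and Insig2. They were whole in 0 of 12 for Tm7sf2, Acaca, Fads1 and Fdft1 and in 0 of the 9 values checked for Sqle. Lss and Fdps had 1 whole value of 12. Among these, Tm7sf2 was at 661 to 1096 fragments, a depth at which Mvk (855 to 1380) and Ebp (1003 to 1309) were whole throughout. Fads1 (4660 to 8046), Fdft1 (6242 to 8427) and Sqle (7733 to 11466) lay above every gene whole throughout, the highest being Hsd17b7 at up to 3467. They therefore had no such match in depth. Whether fragments shared with other genes had a part in this was not tested, and the levels of the genes without whole values may be less certain.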

How the data were processed

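RNA abundance was measured in the 12 samples described above. The authors deposited 1 table of TPM per gene. The submitters' processing notes name GRCm39, STAR 2.7.9a and Partek, whereas the study's methods name fastp, STAR with GRCm38 and RSEM. Of 23913 nuclear genes compared, 2.07% had the coordinates that GENCODE gives for GRCm38, so coordinates are printed as in the table and were not combined with the reference, except that promoter windows are of GRCm38.p6. The deposited TPM was computed with each gene's full extent, introns included, as its length: the listed length equalled stop minus start for 100% of genes, and its median was 11598 bp against 3006 bp of exon, so long genes read low. Most low values were multiples of 1 fragment: 66.2% to 67.5% of values under 1000 fragments came out whole within 0.02. The size of 1 fragment gave the fragments and the depth of 33251850 to 43499007 per sample.

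As in the study, a 2-factor limma model (UK5099, butyrate and the interaction) was fitted, here to log2(TPM + 1) in all 12 samples and 24674 genes. Variances were moderated by empirical Bayes, p-values were adjusted by Benjamini-Hochberg, and the pseudocount was not taken from the study. Replicates were counted as the labels give them. Those of a group differed by more than counting noise, with a chi-square per gene of 1.59 to 3.10, so none looked like 1 library deposited again, but this does not show that they were separate cultures. No pairing by replicate number was seen in the values, which does not show that the samples were unpaired. Alternatives were pseudocounts of 0.1 and 0.01, a filter at a mean of 1 TPM, median of ratios scaling, quantile normalisation, nuclear protein-coding genes rescaled, TPM by exonic length, voom on recovered fragments, a replicate block, a trended, robust prior, fits of 6 samples, each sample left out, and other limits. The fit and the step finder were tested on simulated data.

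The 33 genes, the 7 lists of related genes and the lists of basal, luminal, squamous, proliferation, fibroblast, immune, endothelial, adipocyte, sebocyte and neuroendocrine markers were chosen with earlier results of these data known. Every one of the 33 genes was named. Values of every sample were given for genes called in any comparison and for the 3 highest and 3 lowest coefficients of the UK5099, butyrate and interaction terms among genes averaging 1 TPM or more. Up to 4 called related genes were named per comparison. Other values given by sample were chosen after seeing them. Exonic lengths came from GENCODE for GRCm38 by gene identifier. Fits used limma 3.58.1 under R 4.3.3, and tables and figures Python 3.11.15 with pandas 2.3.3, numpy 2.4.6 and matplotlib 3.10.9.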

Additional observations from a re-analysis of the deposited data

Results flagged for a closer look

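For 5 of the 33 genes the change with UK5099 differed with and without butyrate, by the interaction term of the limma fit over all 24674 genes. At the same limit of 0.01, 7.01% of all genes had a positive term and 6.38% a negative one. Among genes with at least 1 TPM these shares were 9.67% and 10.4%, so such terms were not particular to the 33 genes. The term was 0.43 for Elovl7 (adjusted p = 1.45e-05), 0.34 for Fads2 (adjusted p = 0.000202), 0.31 for Dhcr7 (adjusted p = 0.00011), 0.29 for Srebf1 (adjusted p = 0.0016) and -0.30 for Idi1 (adjusted p = 0.00192). On scaled values the terms were 0.41, 0.33, 0.30, 0.29 and -0.30 in the same order. Groups of 3 samples are too small for a check of single outlying samples.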

How the results depend on the processing

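At both limits the count of 0 with UK5099 became 1 with a pseudocount of 0.01, 1 with a coefficient limit of 0.58 and 16 with no coefficient limit. With butyrate the 0 became 2 with a pseudocount of 0.1 or 0.01, 1 with exonic length, 7 at 0.58 and 31 with no limit. With the combination the 2 became 0 after median of ratios scaling, quantile normalisation and voom, 10 at 0.58 and 30 with no limit. The 0 of the interaction became 5 with no limit. The 0 of butyrate against UK5099 became 1 with a pseudocount of 0.01, 1 with voom, 2 at 0.58 and 31 with no limit. An adjusted p-value limit of 0.05 in place of 0.01 moved none of these 5 counts by over 1.5 times.

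Counts at an adjusted p-value under 0.01 alone moved as follows. With UK5099 the 5 higher became 15 after median of ratios scaling, 10 after quantile normalisation, 17 with voom, 3 with a pseudocount of 0.01 and 1 in a fit of the 6 samples compared. With butyrate the 0 higher became 5, 3 and 7 and the 31 lower became 14, 14 and 15 under median of ratios, quantile and voom. With the combination the 0 higher became 12, 8 and 14 and the 30 lower 11, 14 and 11 under the same 3 settings, and 1 was higher with nuclear protein-coding genes rescaled or with exonic length. For the interaction voom gave 9 positive in place of 4 and 2 negative in place of 1, and nuclear protein-coding genes rescaled gave 5 negative. For butyrate against UK5099 the 2 higher became 4 under each of the 3 settings and 1 with the filter at 1 TPM, which removes Acacb, and the 29 lower became 19 after quantile normalisation. The cause of these moves was not tested.

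Deviations of the 18 same-numbered pairs correlated between -0.107 and 0.029, so no pairing by replicate number was seen. This does not show that the samples were unpaired. With the replicate number as a block, the 5 scaled higher genes with butyrate became 3, as they did with a pseudocount of 0.1, and no other count moved by over 1.5 times.

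Leaving out each sample in turn gave 0 to 0 genes at both limits for UK5099, butyrate, the interaction and butyrate against UK5099, and 2 to 3 for the combination. At the p-value limit as deposited, UK5099 gave 3 to 5 higher and 11 to 12 lower, butyrate 0 to 0 and 29 to 31, the combination 0 to 0 and 28 to 29, the interaction 4 to 5 positive and 1 to 3 negative, and butyrate against UK5099 2 to 2 and 28 to 29. The 3 higher with UK5099 came without Vehicle replicate 2 or 3 or UK5099 replicate 1 or 3, and the 3 and 2 negative interactions without UK5099 replicate 1 and without replicate 1 of the combination. On scaled values UK5099 gave 11 to 15 and 7 to 9, butyrate 3 to 7 and 14 to 15, the combination 10 to 12 and 11 to 12, the interaction 4 to 5 and 1 to 2, and butyrate against UK5099 3 to 4 and 20 to 22. The 3 higher with butyrate came without Vehicle replicate 1 or 3, UK5099 replicate 2 or Butyrate replicate 3, and the 2 negative scaled interactions without UK5099 replicate 1 or combination replicate 1 or 2. No single gene of the 33 that passed the limit changed sign when a sample was left out.

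Among single genes past the limit as deposited, the following coefficients changed sign, all from negative to positive. With UK5099 they were Srebf2 0.054 after median of ratios scaling, Srebf2 0.016 after quantile normalisation, and Srebf2 0.061 and Fasn 0.005 with voom. With butyrate they were Hmgcs1 0.098, Pmvk 0.130, Idi1 0.212, Lss 0.225, Msmo1 0.187, Sc5d 0.102, Insig1 0.021 and Scap 0.025 after median of ratios scaling, Pmvk 0.172, Mvd 0.039, Idi1 0.034, Lss 0.260, Msmo1 0.143, Sc5d 0.123 and Scap 0.007 after quantile normalisation, Hmgcs1 0.10, Pmvk 0.138, Mvd 0.003, Idi1 0.214, Lss 0.236, Msmo1 0.190, Sc5d 0.106, Insig1 0.023 and Scap 0.030 with voom, and Lss 0.002 with nuclear protein-coding genes rescaled. With the combination they were Hmgcs1 0.019, Mvk 0.295, Mvd 0.129, Idi1 0.276, Fdps 0.136, Fdft1 0.011, Lss 0.260, Tm7sf2 0.185, Msmo1 0.342, Nsdhl 0.073, Ebp 0.044, Srebf2 0.052, Scap 0.230, Acacb 0.016 and Elovl1 0.187 after median of ratios scaling, Mvk 0.254, Mvd 0.117, Idi1 0.035, Fdps 0.013, Lss 0.255, Tm7sf2 0.172, Msmo1 0.178, Nsdhl 0.058, Ebp 0.031, Srebf2 0.011, Scap 0.190 and Elovl1 0.083 after quantile normalisation, and Hmgcs1 0.029, Mvk 0.347, Mvd 0.148, Idi1 0.288, Fdps 0.149, Fdft1 0.024, Lss 0.282, Tm7sf2 0.208, Msmo1 0.356, Nsdhl 0.090, Ebp 0.059, Srebf2 0.064, Scap 0.269, Acacb 0.097 and Elovl1 0.198 with voom. For butyrate against UK5099 they were Hmgcs1 0.039 after median of ratios scaling, Msmo1 0.001 and Srebf1 0.033 after quantile normalisation and Hmgcs1 0.035 with voom, and for the combination against butyrate Scd1 0.006 with voom. The 6 related genes named kept their sign and an adjusted p-value under 0.01 under all 320 alternatives run for them. The coefficient limit of 1 was not kept in all, since Cers2 with butyrate stood at -0.73 after median of ratios scaling. Fits of 6 samples were not run for the interaction. The directional counts, the comparison of the combination with butyrate and the alternatives on scaled values were chosen after seeing the data.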
